A study of Mus musculus with 17 samples.

Results

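The genes described here are Myc, Mycn, Mycl, Max, Mxd1, Mxd3, Mxd4 and Mnt, 8 of the 53693 mouse genes to which the deposited transcripts belong. They were chosen by name, with earlier results of these data known. One of those results was the low Myc of the iFoxC1 library at 0 h, which is given apart below. Levels came from polyadenylated RNA of 5 mouse embryonic stem (ES) cell lines, 17 libraries in all. Every line derives from MC1 ES cells of the 129S6/SvEvTac strain. Each carries at Rosa26 the open reading frame of a single Fox transcription factor, tagged C-terminally with His6-FLAG, in a construct that doxycycline (Dox) represses and that also holds puromycin resistance. At 24 h the cells had been washed free of Dox, in washes 3 h apart, and kept in DMEM differentiation medium with 10% serum, so transgene induction and the change of medium came together. At 0 h they were in ES medium with 15% serum, 1000 U/ml LIF, 0.2 µg/ml Dox and 1.0 µg/ml puromycin. There were 11 libraries at 24 h, with 3 in iFoxA1 and 2 in each of iFoxC1, iFoxG1, iFoxL2 and iFoxP3, and 6 at 0 h, with 2 in iFoxA1 and 1 in each other line. No line without a transgene was among the samples.

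Myc, Mycn (N-Myc) and Mycl (L-Myc) are basic helix-loop-helix leucine zipper proteins that bind DNA as heterodimers with Max, at the E-box CACGTG and related sites, and activate growth genes. The Mxd proteins and Mnt also pair with Max at E-boxes, and they recruit the Sin3 and histone deacetylase corepressors, so they act against Myc. In mouse ES cells cultured with LIF, Myc is a known target of STAT3, and Myc and Mycn overlap in function in keeping the cells pluripotent.

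Library totals ran between 17.7 and 37.2 M estimated counts. All 5 libraries over 30 M counts were 24 h libraries, 1 per line, and they differed from the other 24 h libraries in 26.3% of the 19819 genes tested with edgeR (adjusted p under 0.05). The deeper set is therefore named wherever a gene moved with it. Fits to the libraries under 30 M counts keep replicates in iFoxA1 only. Those iFoxA1 pairs lay closer to sampling noise than any other pair of replicates. Chi-square per degree of freedom was 2.80 at 0 h and 3.32 at 24 h, against 79.0 to 206 in the other pairs. Passing a test in that set therefore says little about a single gene, and its adjusted p is not given for single genes. Summed ES cell markers stood at 1997 to 3985 CPM (counts scaled with TMM factors to a common library size) at 24 h and at 3341 to 3886 CPM at 0 h. The sum hides moves in both directions among its 8 genes. Nanog (-2.40 on the log2 scale) and Zfp42 (-1.27) fell, and Utf1 (1.46) and Lin28a (0.52) rose. These were edgeR calls on the average change of the 5 lines, in which 21.7% of all genes rose and 16.1% fell. Fibroblast markers summed to 8.25 to 19.1 CPM at 24 h and to 6.45 to 12.7 CPM at 0 h, and 2 of the 8 were under 1 CPM in every library. Primitive endoderm markers summed to 130 to 215 CPM in iFoxA1 and 14.8 to 35.9 CPM in the other lines at 24 h, and to 298 and 307 CPM in iFoxA1 and 35.1 to 57.3 CPM in the other lines at 0 h. This sum, too, hides moves in both directions. In the same average Lama1 fell (-2.09 on the log2 scale), and Dab2 (2.39) and Gata6 (0.64) rose. Trophoblast markers summed to 101 to 231 CPM at 24 h and 75.6 to 101 CPM at 0 h. In such bulk RNA, fewer cells of a type and less RNA per cell cannot be told apart.

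The stretches upstream of 2 genes whose values stand out below, Mxd4 and Mxi1, are shown first. Mxd4 rose in every line. Mxi1, a further Max partner outside the 8, was high in iFoxA1 at 24 h, with most of its TPM assigned to a transcript annotated from an upstream start. Each run is the 250 bases before a RefSeq transcription start (GRCm38.p6), written 5′ to 3′ on the gene's strand, with the E-box CACGTG in capitals where it occurs.
Mxd4, chr5:34187711-34187960, minus strand: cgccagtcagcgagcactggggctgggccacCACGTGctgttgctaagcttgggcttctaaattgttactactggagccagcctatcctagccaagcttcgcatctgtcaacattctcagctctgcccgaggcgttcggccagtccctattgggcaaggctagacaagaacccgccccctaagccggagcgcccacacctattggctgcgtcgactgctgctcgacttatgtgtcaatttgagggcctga
Mxi1, upstream start, chr19:53310256-53310505, plus strand: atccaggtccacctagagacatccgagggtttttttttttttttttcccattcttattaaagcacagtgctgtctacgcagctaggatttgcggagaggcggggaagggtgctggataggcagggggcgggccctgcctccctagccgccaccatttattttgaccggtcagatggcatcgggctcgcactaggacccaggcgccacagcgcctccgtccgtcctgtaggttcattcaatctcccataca
Mxi1, downstream start, chr19:53329163-53329412, plus strand: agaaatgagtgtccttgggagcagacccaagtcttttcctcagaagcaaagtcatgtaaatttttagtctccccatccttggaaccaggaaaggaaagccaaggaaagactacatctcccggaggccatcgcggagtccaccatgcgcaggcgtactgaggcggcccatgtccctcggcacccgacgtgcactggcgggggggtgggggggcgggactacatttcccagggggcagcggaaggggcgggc

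The RefSeq windows covered 7 of the 8 genes and all 5 other genes of the Max and Mlx network, 15 windows in all. CACGTG, which reads the same on both strands, was found in 4 of them, those of Mxd4, Mnt, Mlx and the upstream window of Mlxipl. In Mxd4 it began 219 bases before the start, and in Mnt 123 bases before. Of all 32851 windows of the same length, 6.02% held it. The forkhead letters GTAAACA or TGTTTAC, which do not overlap the E-box, were in 1 of the 15, another Mxi1 window that is not shown, and in 3.17% of all windows. These are matches of letters and not measured binding.

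Myc encodes the founding member of the family (ENSMUSG00000022346.15, mm10 chr15:61985391-61990374, plus strand). At 24 h its level was 44.1, 43.3 and 31.0 CPM in iFoxA1, 70.1 and 98.8 CPM in iFoxC1, 77.6 and 95.4 CPM in iFoxG1, 41.7 and 49.8 CPM in iFoxL2, and 87.8 and 117 CPM in iFoxP3. At 0 h it was 24.4 and 25.8 CPM in iFoxA1, 30.1 CPM in iFoxG1, 29.3 CPM in iFoxL2 and 29.7 CPM in iFoxP3. Set apart, the iFoxC1 library at 0 h had 1.66 CPM. The 5 libraries at 0 h other than iFoxC1 lay within a narrow band. In CPM each of the 11 libraries at 24 h was above each of the 6 at 0 h, an order held by 4.79% of all genes tested. In TPM (scaled to transcript length) this order did not hold. There iFoxA1 replicate 3 at 24 h, a deeper library, had 12.5 TPM, below the 13.7 to 17.6 TPM of those 5. Since Myc at 0 h entered the choice of genes, its change with time is a description with no test. It was 2.05 ± 0.14 (SE) on the log2 scale as an average of the 5 lines, and 1.15 ± 0.14 without iFoxC1. Within lines it was 0.65 ± 0.22 in iFoxA1, 0.64 ± 0.30 in iFoxL2, 1.52 ± 0.31 in iFoxG1, 1.79 ± 0.31 in iFoxP3 and 5.67 ± 0.40 in iFoxC1.

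The iFoxC1 library at 0 h held 35 estimated counts of Myc, with an exact 95% Poisson interval of 24.4 to 48.7 counts, or 1.16 to 2.31 CPM, which covers counting error only. The mean of the other 5 libraries at 0 h was 16.8 times higher, and the mean of the iFoxC1 libraries at 24 h was 50.9 times higher. Among 10871 genes averaging 5 CPM or more, Myc ranked 16th from the lowest in that library against the other 0 h libraries, at -4.05 on the log2 scale. The library had 84 genes at least 4-fold below the mean of the others, against 13 to 17 in each of the other 0 h libraries. The low value was not shared by the surroundings of Myc. Across the 23 other genes of that level within 5 Mb the median difference was 0.06 on the log2 scale, and Pvt1, the long noncoding RNA gene next to Myc, had 8.53 CPM in that library, with 7.89 to 11.9 CPM in the other 0 h libraries. The remaining Myc was assigned to Myc-204 at 0.60 TPM, Myc-208 at 0.62 TPM and Myc-205 at 0.07 TPM (TPM is scaled to transcript length). With 1 library of iFoxC1 at 0 h, line and library cannot be told apart.

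At 24 h Myc differed among the lines. The means were 102 ± 20.7 CPM in iFoxP3, 86.5 ± 12.6 CPM in iFoxG1, 84.4 ± 20.3 CPM in iFoxC1, 45.7 ± 5.75 CPM in iFoxL2 (SD, n = 2 each) and 39.5 ± 7.32 CPM in iFoxA1 (SD, n = 3). In this order only iFoxC1 and iFoxL2 are neighbours whose libraries do not overlap, so the lines fell into a higher set of 3 and a lower set of 2. The difference among the 5 lines had an adjusted p of 0.00787 in edgeR's quasi-likelihood F test, where 13.1% of all genes tested were called, and no other gene of the 8 was called there. The adjusted p was 0.141 in limma on log2(TPM + 1). Myc was higher in the deeper library in all 4 lines with 2 libraries at 24 h and lowest in the deeper of the 3 iFoxA1 libraries, and the term for deeper libraries was 0.17 ± 0.14 (adjusted p = 0.387, edgeR).

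**Figure D1:**
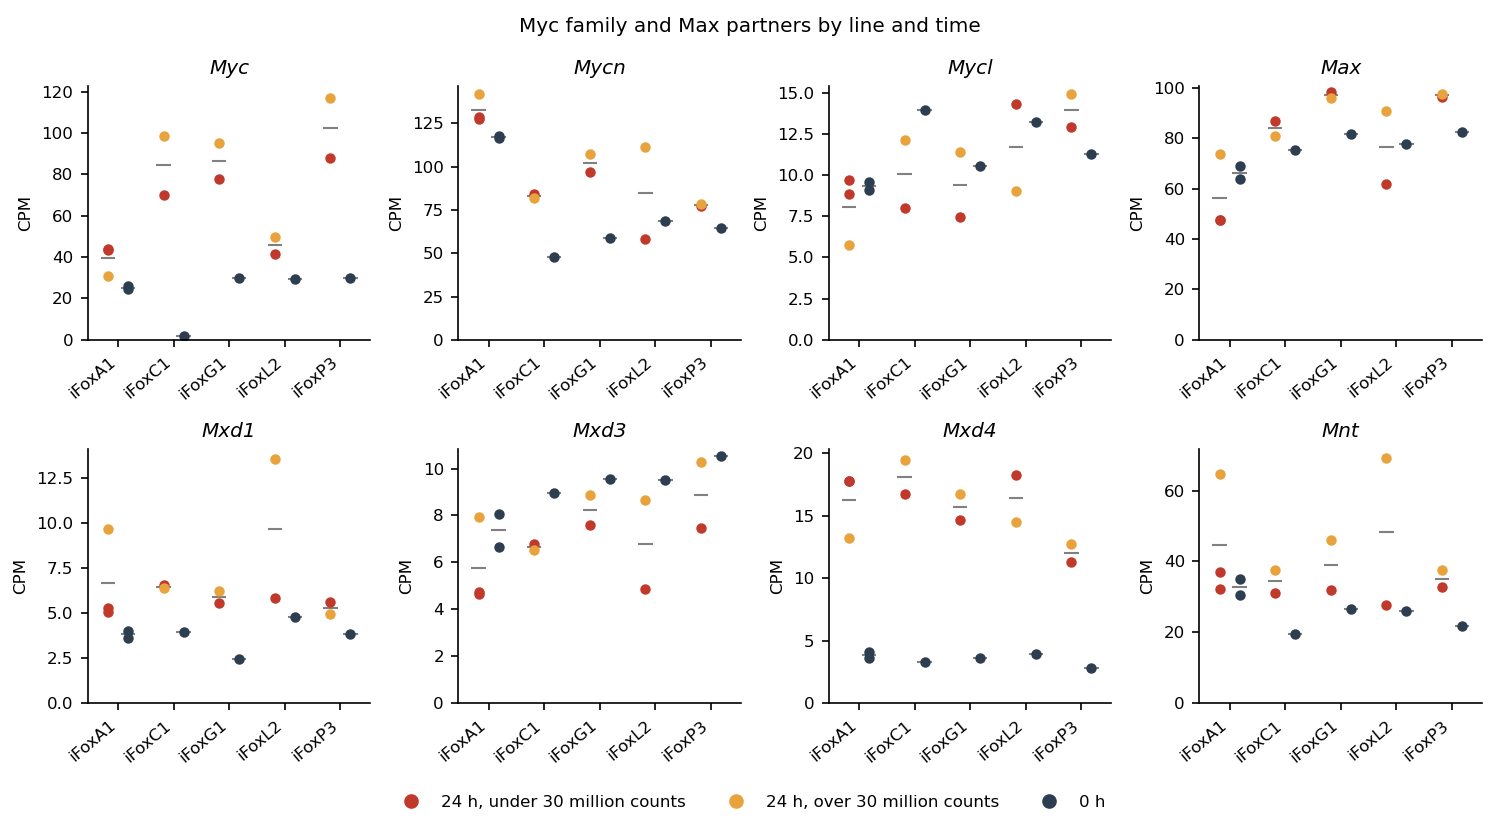
Level of each of the 8 genes in CPM (vertical axis, starting at 0) by line (horizontal axis), with 24 h left of 0 h in each line. Points are libraries, yellow ones those over 30 M counts, and grey bars are means. Mxd4 at 24 h (11.3 to 19.5 CPM) lies above every 0 h library (2.83 to 4.07 CPM), and Myc of iFoxC1 at 0 h lies near the axis.

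Mycn, known to be abundant in ES cells and early embryos (ENSMUSG00000037169.15, chr12:12936093-12941914, minus strand), was higher at 24 h on average, and iFoxA1 stood above the other lines at both times. At 24 h it had 127, 129 and 142 CPM in iFoxA1, 84.0 and 82.0 CPM in iFoxC1, 96.9 and 107 CPM in iFoxG1, 58.3 and 111 CPM in iFoxL2, and 77.2 and 78.3 CPM in iFoxP3. At 0 h it had 116 and 118 CPM in iFoxA1, 47.7 CPM in iFoxC1, 58.5 CPM in iFoxG1, 68.4 CPM in iFoxL2 and 64.4 CPM in iFoxP3. The iFoxA1 libraries were above those of every other line at both times, and the 24 h and 0 h libraries overlapped. Averaged over lines the change was 0.47 ± 0.13 on the log2 scale (adjusted p = 0.0159, edgeR). This call was lost when iFoxC1 at 0 h (adjusted p = 0.0562) or iFoxG1 at 0 h (adjusted p = 0.0637) was left out, under the replicate block (0.0501), and in limma on log2(TPM + 1) (0.127). Without iFoxC1 in the average it was 0.39 ± 0.14 (adjusted p = 0.0556).

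The higher level of Mycn in iFoxA1 was shared by Ddx1 and Nbas beside it. Ddx1, an RNA helicase gene 275 kb away, had 420 to 468 CPM in iFoxA1 and 242 to 305 CPM in the other lines at 24 h, and 420 to 426 CPM in iFoxA1 and 270 to 318 CPM in the other lines at 0 h. Nbas, a gene of Golgi-to-ER transport 327 kb away, had 38.2 to 49.5 CPM in iFoxA1 and 22.2 to 32.9 CPM in the other lines at 24 h, and 40.2 to 41.7 CPM in iFoxA1 and 17.3 to 20.8 CPM in the other lines at 0 h. For all 3 genes the iFoxA1 libraries did not overlap those of the other lines at either time. The share of all genes that part iFoxA1 from the other lines in this way was not counted. These neighbours were chosen after their values were seen. Of 5 genes within 1 Mb of Mycn, with Mycn, Ddx1 and Nbas among them, 3 were higher in iFoxA1 than in the mean of the other lines at 24 h. At 0 h all 5 were. Of 31 genes within 5 Mb, these included, 19 were higher at 24 h, with a median difference of 0.37 on the log2 scale. At 0 h 27 were, with a median of 0.52. Of all 10871 genes averaging 5 CPM or more, 5217 were higher at 24 h and 5300 at 0 h, with medians of -0.02 and -0.01. Over the 416 on chromosome 12 the medians were 0.01 and 0.02. In 10 Mb steps along chromosome 12 the median at 0 h ran between -0.45 and 0.43, and in the step from 10 to 20 Mb, which holds Mycn, it was -0.24 at 24 h and 0.02 at 0 h. The primitive endoderm markers, given above, were also higher in iFoxA1 at both times, and their part in the Mycn difference was not tested. Mycn itself did not pass the test among lines at 24 h (adjusted p = 0.117, edgeR). It did so in DESeq2 (0.00784), with the term for deeper libraries (0.0323), and when either iFoxL2 library at 24 h was left out. It also did so in the libraries under 30 M counts, which hold replicates in iFoxA1 only.

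**Figure D2:**
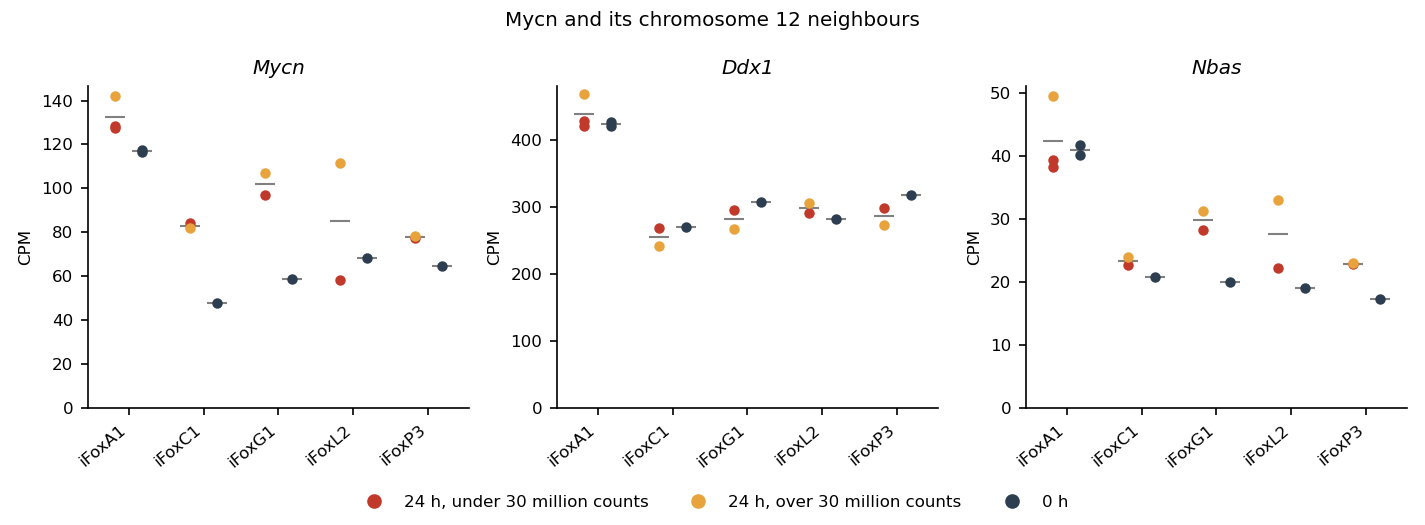
Mycn, Ddx1 and Nbas in CPM (vertical axes, starting at 0) by line, with 24 h left of 0 h. Points are libraries and grey bars means. The 5 iFoxA1 libraries lie above all libraries of the other lines in each panel, for example at 38.2 to 49.5 CPM of Nbas against at most 32.9 CPM.

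Mycl, which encodes L-Myc (ENSMUSG00000028654.13, chr4:122995652-123002485, plus strand), was the least abundant family member. It had 5.73 to 15.0 CPM with a median of 9.73 at 24 h and 9.10 to 13.9 CPM with a median of 10.9 at 0 h, and the groups overlapped throughout. The average change was -0.14 ± 0.18 (adjusted p = 0.565, edgeR). It passed the test only in the libraries under 30 M counts (-0.20), which hold replicates in iFoxA1 alone.

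Per transcript length, the balance between Myc and Mycn differed by line. Myc held 26.6, 26.2 and 20.1% of the summed TPM of Myc, Mycn and Mycl in iFoxA1 at 24 h, and 18.6 and 19.6% at 0 h. In iFoxP3 it held 53.8 and 61.1% at 24 h and 32.9% at 0 h, and in iFoxC1 47.6 and 56.6% at 24 h and 4.21% at 0 h. In iFoxG1 it held 46.2 and 51.0% at 24 h and 35.0% at 0 h. In iFoxL2 it held 41.1 and 35.5% at 24 h and 30.3% at 0 h. Myc TPM exceeded Mycn TPM in 4 of 11 libraries at 24 h, 3 of them in the deeper set, and in 0 of 6 at 0 h. In iFoxA1, Mycn made up most of the family's TPM in every library, with 69.8 to 77.6% at 24 h and 76.2 and 76.7% at 0 h. In the other lines Mycn held 33.8 to 60.7% at 24 h. At 0 h it held 57.1 to 79.6% there, with the highest share in iFoxC1, so Mycn was the larger part in every line at 0 h.

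Genes whose pattern was most like each family member were taken by Pearson's r of log2 CPM over the 17 libraries, among 9928 protein-coding genes that have a name and average 5 CPM or more. For Myc these were Ina (r = 0.965), Exoc3l (0.957) and Mthfsd (0.939), with r of 0.887, 0.841 and 0.804 over the 16 libraries without iFoxC1 at 0 h. For Mycn they were Nbas (0.916), Dicer1 (0.914) and Usf3 (0.913), of which Nbas and Dicer1 are also on chromosome 12. For Mycl they were Mgat1 (0.791), Steap1 (0.758) and Rrnad1 (0.720). The points share lines and depth sets, and the values are descriptions.

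Max, the shared partner (ENSMUSG00000059436.13, chr12:76937269-76962201, minus strand), changed little. It had 47.7, 47.5 and 73.5 CPM in iFoxA1 and 61.9 to 98.2 CPM in the other lines at 24 h, and 68.9 and 63.8 CPM in iFoxA1 and 75.2 to 82.6 CPM in the other lines at 0 h. Both shallower iFoxA1 libraries at 24 h were the lowest of all 17. The average change was 0.08 ± 0.12 (adjusted p = 0.660, edgeR), and the lines did not pass the test at 24 h (adjusted p = 0.109). They passed it in DESeq2 (0.0116), with the term for deeper libraries (0.0358) and under the replicate block (0.0174). They also passed when iFoxA1 replicate 3 at 24 h (0.0161) or either iFoxL2 library at 24 h was left out. The test was passed too in the libraries under 30 M counts, which hold replicates in iFoxA1 only.

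Max looked different in TPM, which followed the library set. Its gene-level TPM was 166 to 279 in the 5 deeper libraries and 39.7 to 91.3 in the other 12. The coding transcripts Max-201 and Max-202 together stood at 35.2 to 51.0 TPM in the deeper libraries and at 34.5 to 71.6 TPM in the others. The gap lay in Max-206, a transcript of 203 bases annotated as a target of nonsense-mediated decay, at 115 to 228 TPM in the deeper libraries and 2.52 to 30.6 TPM in the others. A short transcript gains much TPM from few reads. In CPM the term for deeper libraries on Max was 0.24 ± 0.12 (adjusted p = 0.152, edgeR). On log2(TPM + 1) the average change of Max was 0.95 in limma (adjusted p = 0.209). The share of Mycn TPM assigned to Mycn-202 moved with the same libraries, at 34.3 to 54.0% in the deeper ones and 0.84 to 10.9% in the others.

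**Figure D3:**
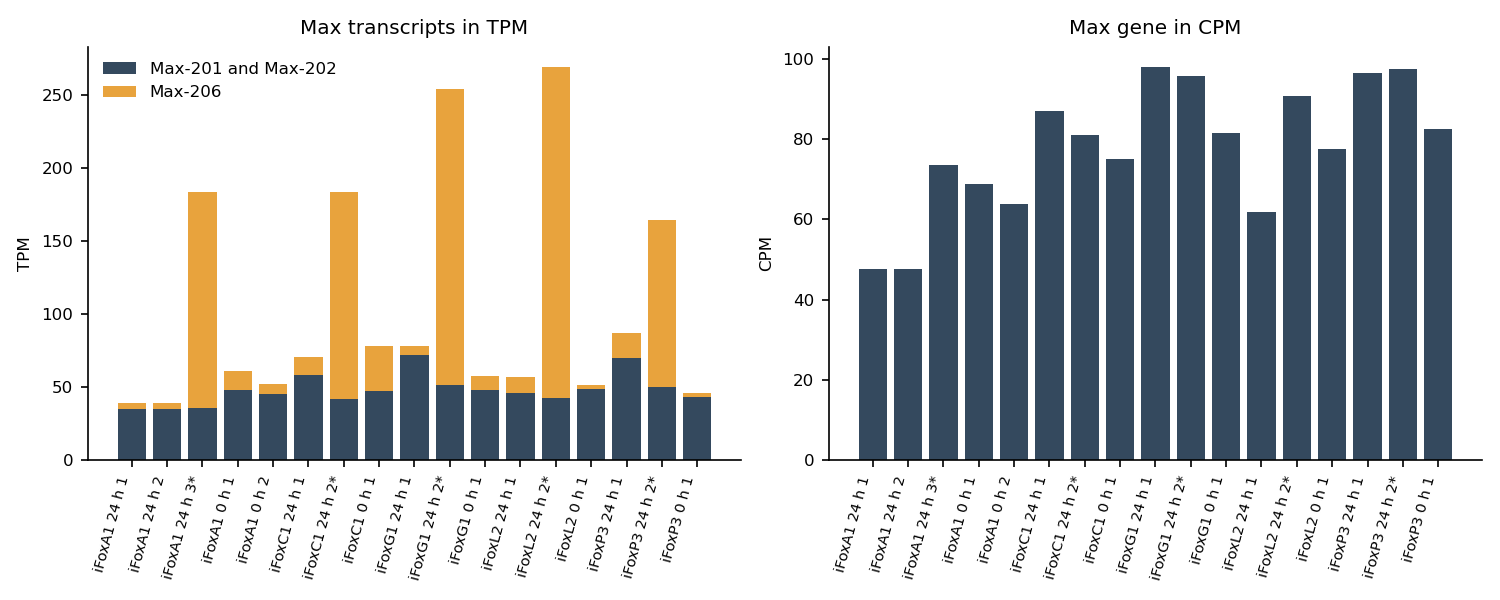
Max by library, 24 h left of 0 h in each line, with an asterisk for libraries over 30 M counts. Left, TPM of Max-201 and Max-202 summed (dark) and of Max-206 (yellow) stacked on it, other Max transcripts left out. Right, CPM of the gene. Max-206 reaches 115 to 228 TPM in the 5 deeper libraries, while the gene's CPM there lies at 73.5 to 97.5.

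Of the antagonists, Mxd4 rose the most. It encodes a repressor of the Mxd group (formerly Mad4) that is known to be expressed as cells leave the cycle and differentiate (ENSMUSG00000037235.13, chr5:34173883-34187720, minus strand). At 24 h it had 17.8, 17.8 and 13.2 CPM in iFoxA1, 16.8 and 19.5 CPM in iFoxC1, 14.7 and 16.8 CPM in iFoxG1, 18.2 and 14.5 CPM in iFoxL2, and 11.3 and 12.8 CPM in iFoxP3. At 0 h it had 4.07 and 3.63 CPM in iFoxA1, 3.27 CPM in iFoxC1, 3.60 CPM in iFoxG1, 3.95 CPM in iFoxL2 and 2.83 CPM in iFoxP3. Every 24 h library was at least 2.77 times as high as the highest 0 h library, and the lines moved alike. The average change was 2.16 ± 0.12 (adjusted p = 4.38e-06, edgeR), with 2.05 to 2.47 within lines and no difference among them that passed the test. Mxd4 was called under every alternative tried. The trophoblast markers given above were also higher at 24 h in most libraries, and their part in the rise was not tested.

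Mxd1, formerly Mad1, another repressor of the group (ENSMUSG00000001156.9, chr6:86647042-86669161, minus strand), also rose. It had 4.94 to 13.5 CPM with a median of 5.85 at 24 h and 2.47 to 4.76 CPM with a median of 3.88 at 0 h, with no overlap. The 2 highest values, 13.5 and 9.67 CPM, were in the deeper libraries of iFoxL2 and iFoxA1. The average change was 0.85 ± 0.22 (adjusted p = 0.0148, edgeR), and 0.89 ± 0.25 without iFoxC1 (adjusted p = 0.0218), a call lost when iFoxG1 (0.0682) or iFoxL2 (0.0510) at 0 h was left out. In limma on log2(TPM + 1) it was 0.40 (adjusted p = 0.0638).

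Mnt, the most widely expressed of the antagonists (ENSMUSG00000000282.12, chr11:74830920-74845725, plus strand), had 27.7 to 69.1 CPM with a median of 37.0 at 24 h and 19.4 to 35.0 CPM with a median of 26.3 at 0 h. The libraries overlapped, and the 2 highest, 69.1 and 64.7 CPM, were the same deeper libraries of iFoxL2 and iFoxA1. The average change was 0.68 ± 0.23 (adjusted p = 0.0424, edgeR), but it was 0.34 (0.0980) with a term for the deeper libraries, whose own term for Mnt was 0.66 ± 0.15 (adjusted p = 0.0122). The call was also lost under the replicate block (0.0740) and when any single library at 0 h, either iFoxC1 or either iFoxP3 library at 24 h, or iFoxG1 replicate 2 at 24 h was left out (0.0559 to 0.0907).

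Mxd3, formerly Mad3, differs from its relatives in being known from S phase of dividing cells (ENSMUSG00000021485.14, chr13:55325168-55329823, minus strand). It was the antagonist with lower values at 24 h, at 4.66 to 10.3 CPM with a median of 7.45, and 6.65 to 10.5 CPM with a median of 9.24 at 0 h. The mean at 24 h was below that at 0 h in all 5 lines. The average change of -0.35 ± 0.18 did not pass the test (adjusted p = 0.154, edgeR). In the 6 shallower libraries at 24 h the level was 6.02 ± 1.41 CPM, against 8.88 ± 1.36 CPM in the 6 at 0 h (SD). The deeper libraries were higher by 0.46 ± 0.14 (adjusted p = 0.0407, edgeR). With a term for them the change was -0.58 (adjusted p = 0.00919, edgeR), and under the replicate block it was -0.53 (0.0148). It was -0.45 without iFoxL2 replicate 2 at 24 h, where it also passed the test. Within the libraries under 30 M counts, with replicates in iFoxA1 only, it was -0.57 and passed.

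Together, 4 of the 7 genes tested rose between the times and 0 fell at an adjusted p under 0.05 in edgeR. Of all genes, 37.8% were called in this comparison, 21.7% rising and 16.1% falling. Without iFoxC1 it was 2 of 7, Mxd1 and Mxd4, with 33.6% of all genes called, 18.8% rising and 14.8% falling. Every 24 h library was above every 0 h library in 2 of the 7, again Mxd1 and Mxd4, and in 4.79% of all genes, while the reverse order held in 0 of the 7 and in 3.9% of all genes. With the iFoxC1 library at 0 h left out, the same 2 stood apart, beside 5.98% of all genes above and 5.63% below. The median change of the 7 was 0.47, and that of all genes 0.04. The change differed among lines in 0 of the 7, where 0.984% of all genes were called in edgeR. It did for Mycn when iFoxL2 replicate 2 at 24 h was left out. In the libraries under 30 M counts, which hold replicates in iFoxA1 only, it did for Mycn, Mycl and Max.

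Compared per length in libraries under 30 M counts, the medians at 24 h were 67.7 TPM for Max, 49.1 for Mycn, 36.2 for Myc, 9.13 for Mnt, 6.63 for Mxd4, 5.67 for Mxd3, 4.11 for Mycl and 1.67 for Mxd1 (6 libraries). At 0 h they were 56.5 TPM for Max, 29.3 for Mycn, 16.1 for Myc, 7.85 for Mxd3, 6.23 for Mnt, 3.91 for Mycl and 1.10 for Mxd1, with Mxd4 between these 2 at 0.87 to 1.91 TPM (6 libraries). At both times the ranges of Max and Mycn overlapped, and Myc overlapped Mycn at 24 h only. Among the 4 antagonists Mxd4 by these medians ranked above Mxd3 and Mxd1 at 24 h and above only Mxd1 at 0 h. Its place against Mxd3 at 24 h varied by line. In this set Mxd4 was above Mxd3 in iFoxA1 and iFoxL2 and below it in iFoxC1, iFoxG1 and iFoxP3. Over all 11 libraries at 24 h the medians were 5.42 TPM for Mxd4 and 5.51 for Mxd3. In the libraries under 30 M counts at 24 h the range of Mxd4 met that of Mxd3 but not that of Mnt. Of the summed TPM of Mxd1, Mxd3, Mxd4 and Mnt, Mxd4 held 17.2 to 34.6% at 24 h and 6.46 to 10.2% at 0 h, with no overlap in all 17 libraries. The sum itself was 18.7 to 25.1 TPM at 24 h and 13.0 to 21.7 TPM at 0 h.

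**Figure D4:**
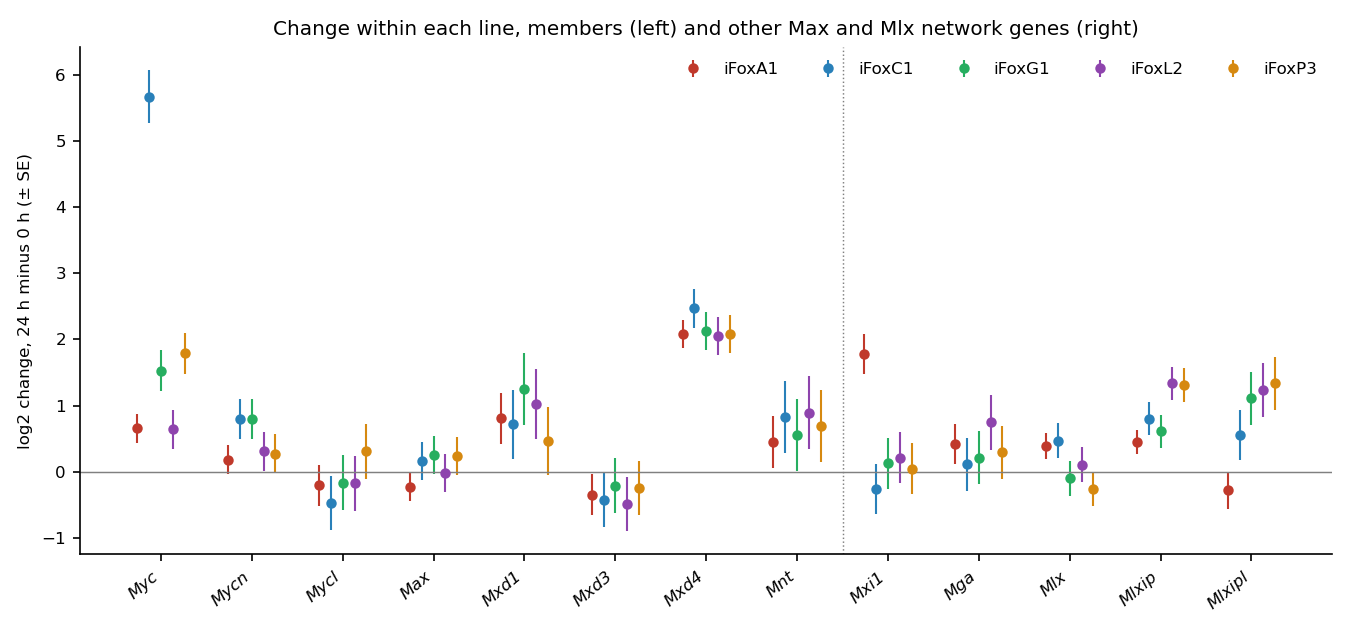
Change in log2 CPM, 24 h minus 0 h, within each line (coloured points, bars are SE from the edgeR fit) for the 8 genes and, right of the dotted line, 5 others of the Max and Mlx network. Mxd4 lies at 2.05 to 2.47 in all lines, Myc at 5.67 in iFoxC1, and Mxi1 at 1.78 in iFoxA1 and between -0.26 and 0.21 elsewhere.

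The other genes of the network are Mxi1 (a Max-binding repressor, also called Mxd2), Mga (a large Max partner of a Polycomb complex), Mlx (the partner that stands in for Max beside the Mondo proteins), Mlxip (MondoA) and Mlxipl (ChREBP), both glucose-responsive activators. Of the 5, Mlxip and Mlxipl rose and none fell, beside 21.7% rising and 16.1% falling among all genes. Mlxip had 34.3 to 66.7 CPM at 24 h and 19.0 to 27.9 CPM at 0 h. Its 24 h libraries were all above those at 0 h, as in 4.79% of all genes, and it changed by 0.90 ± 0.11 (adjusted p = 0.000234, edgeR). Mlxipl was low, at 1.88 to 7.52 CPM at 24 h and 1.35 to 4.41 CPM at 0 h, and changed by 0.79 ± 0.17 (adjusted p = 0.00520), a call lost only in limma on log2(TPM + 1) (0.192). Mga (0.36 ± 0.17) and Mlx (0.12 ± 0.11) did not pass the test. Mga did without iFoxL2 replicate 1 at 24 h, and in the libraries under 30 M counts, which hold replicates in iFoxA1 only. Mlx moved with the deeper libraries by 0.34 ± 0.07 (adjusted p = 0.00695).

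Mxi1 (ENSMUSG00000025025.14, chr19:53310518-53375810, plus strand) set iFoxA1 apart at 24 h. It had 135, 126 and 98.4 CPM in iFoxA1 and 17.3 to 40.3 CPM in the other lines at 24 h, and 33.8 and 36.1 CPM in iFoxA1 and 24.2 to 42.5 CPM in the other lines at 0 h. All 3 iFoxA1 libraries at 24 h were more than 2-fold above every other library. The share of all genes that set iFoxA1 apart this far was not counted. The primitive endoderm markers were higher in iFoxA1 at both times, while Mxi1 in iFoxA1 at 0 h lay within the range of the other lines. Their part in the Mxi1 difference was not tested. Within iFoxA1 the change was 1.78 ± 0.30, and in the other lines -0.26 to 0.21. The lines differed at 24 h (adjusted p = 0.00179, edgeR), in a test that called 13.1% of all genes, and Mxi1 was called there under every alternative. The test of the change among lines was not passed (adjusted p = 0.166, edgeR). It was passed in DESeq2 (0.00193) and when either iFoxL2 library at 24 h was left out. It was also passed in the libraries under 30 M counts, which hold replicates in iFoxA1 only. Mlxipl also differed among lines at 24 h (adjusted p = 0.0387), with its highest values, 5.40 and 7.52 CPM, in iFoxC1 and 1.88 to 2.81 CPM in iFoxA1, 2.72 to 5.01 CPM in the remaining lines. That call was lost in limma (0.424), without the filter on low counts (0.137), and when a library of iFoxA1 at 0 h, replicate 1 or 2 of iFoxA1 at 24 h, a 24 h library of iFoxC1 or iFoxP3, or iFoxG1 replicate 1 at 24 h was left out (0.0552 to 0.198).

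The gain of Mxi1 in iFoxA1 lay mostly in one transcript. Mxi1-201 begins at chromosome 19 position 53310518, just after the upstream window printed above, while Mxi1-202 begins at 53329458 and Mxi1-203 at 53329413, just after the downstream window. Mxi1-201 had 24.2, 22.9 and 11.7 TPM in iFoxA1 at 24 h and 0.35 and 0.82 TPM in iFoxA1 at 0 h. In the 12 libraries of the other lines it was 2.64 TPM or less. Mxi1-202 had 14.8, 13.9 and 4.37 TPM in iFoxA1 at 24 h, the last in the deeper library, and 9.16 and 9.40 TPM at 0 h. Its values thus overlapped between the times only through the deeper library, and the shallower ones at 24 h were above those at 0 h. Across lines the deeper libraries had 4.32 to 5.95 TPM of Mxi1-202. Mxi1-201 made up 62.1 to 63.0% of Mxi1 TPM in iFoxA1 at 24 h, 3.67 and 7.84% in iFoxA1 at 0 h, and 1.01 to 25.7% in the other lines. These transcripts share exons, and the quantification divides shared reads between them by estimate.

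**Figure D5:**
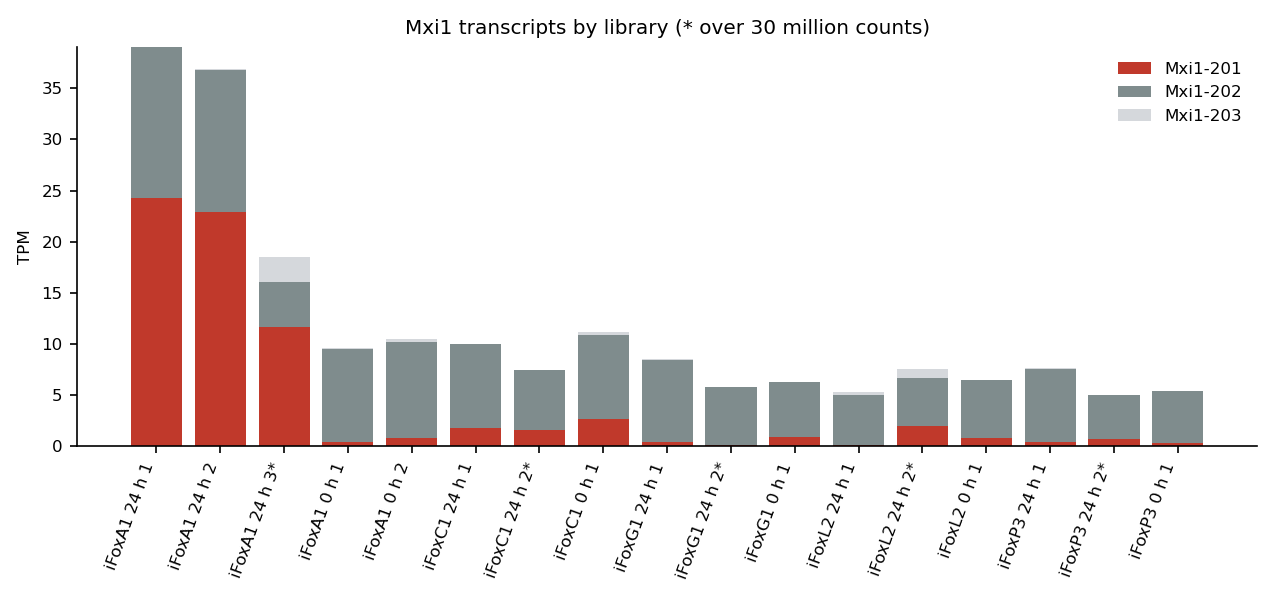
TPM of the Mxi1 transcripts stacked by library, 24 h left of 0 h in each line, with an asterisk for libraries over 30 M counts. The upstream-start Mxi1-201 (red) stands at 11.7 to 24.2 TPM in the 3 iFoxA1 libraries at 24 h and at 2.64 TPM or less in the other 14 libraries.

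Genes that work with the family were counted from lists chosen with earlier results of these data known. Of 12 corepressor genes through which Mxd and Mnt act, 4 rose and 1 fell, with a median of 0.19, beside 21.7% rising and 16.1% falling among all genes. The corepressor gene Ncor1 (0.25 ± 0.08, adjusted p = 0.0263) and the scaffold gene Sin3a (0.20 ± 0.07, 0.0386) rose, and the deacetylase gene Hdac2 fell (-0.54 ± 0.11, 0.00450; edgeR). Without iFoxC1, where 18.8% of all genes rose and 14.8% fell, 2 corepressor genes rose and 1 fell. Of 13 coactivators of Myc, 5 rose and 1 fell, beside 21.7% rising and 16.1% falling among all genes. Without iFoxC1, beside 18.8% and 14.8% of all genes, 3 of the coactivators rose and 3 fell. Among them the acetyltransferase gene Ep300 rose by 1.07 ± 0.08 (adjusted p = 1.70e-05, edgeR), at 169 ± 14.1 CPM at 24 h and 86.7 ± 21.4 CPM at 0 h (SD, n = 11 and n = 6). Trrap, the scaffold through which Myc binds acetyltransferase complexes, rose by 0.49 ± 0.08, and Actl6a, an actin-like subunit of such complexes, fell by 0.48. Of 13 genes of Myc protein turnover, 2 rose and 2 fell, shares near those of all genes (21.7% and 16.1%). The ubiquitin ligase gene Huwe1 (0.39) and the kinase gene Gsk3b (0.31) rose, and Cip2a, whose product stabilises Myc (-0.54), and the deubiquitinase gene Usp7 (-0.22) fell.

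Known target genes of Myc moved in both directions. Of 25 for ribosome biogenesis, 3 rose and 7 fell, with a median of -0.04, beside 21.7% rising and 16.1% falling among all genes. The nucleolar gene Npm1 fell to 3754 ± 336 CPM at 24 h, against 5082 ± 1080 CPM at 0 h (SD), a change of -0.48 ± 0.08 (adjusted p = 0.00117, edgeR), and Wdr12, of ribosome assembly, fell by 0.40. Polr1a, the large subunit of RNA polymerase I, rose by 0.40 ± 0.07 and Mybbp1a by 0.27 ± 0.05. Without iFoxC1, 1 rose and 9 fell, beside 18.8% rising and 14.8% falling among all genes, and Mybbp1a was then 0.12 (adjusted p = 0.147, edgeR). Of 25 for metabolism and growth, 5 rose and 8 fell in both averages, beside the same shares of all genes. Tert, the telomerase reverse transcriptase (0.79 ± 0.10, adjusted p = 0.000336), and Cad, of pyrimidine synthesis (0.68 ± 0.13, 0.00329), rose. Prdx3, a mitochondrial peroxiredoxin (-0.66 ± 0.06, 4.29e-05), and Apex1, of base excision repair (-0.35 ± 0.07, 0.00274), fell (edgeR). The lists thus held rises and falls side by side in the same libraries in which Myc was above its 0 h level in CPM.

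Of 10 growth-arrest genes that Myc is known to repress, 4 rose and 1 fell, again beside 21.7% rising and 16.1% falling among all genes. Gadd45a, a stress-induced growth-arrest gene, had 51.0 ± 16.7 CPM at 24 h and 17.9 ± 4.74 CPM at 0 h (SD, n = 11 and n = 6; 1.63 ± 0.14, adjusted p = 3.85e-05, edgeR). Cdkn1c, the inhibitor p57, had 35.5 ± 42.9 CPM at 24 h and 6.09 ± 2.47 CPM at 0 h (1.94 ± 0.14, adjusted p = 1.28e-05), and its change differed among lines (adjusted p = 0.0183, edgeR). Cdkn2b, the inhibitor p15, was low, at 5.54 ± 3.21 CPM at 24 h and 1.55 ± 0.37 CPM at 0 h, and rose by 1.72 ± 0.42 (adjusted p = 0.0101). Cdkn1a, the inhibitor p21, fell by 0.70 (adjusted p = 0.00351). Of 12 genes upstream of Myc in LIF, STAT3 and Wnt signalling, 3 rose and 3 fell, beside the same shares of all genes. Socs3, the feedback inhibitor of STAT3, had 15.2 ± 4.29 CPM at 24 h and 96.0 ± 4.87 CPM at 0 h, a change of -2.73 ± 0.14 (adjusted p = 1.98e-06), and Stat3 itself had 32.2 ± 5.08 CPM at 24 h and 91.2 ± 8.75 CPM at 0 h, a change of -1.47 ± 0.10 (adjusted p = 1.06e-05; SD, edgeR). Lef1, a Wnt effector, had 39.8 ± 33.1 CPM at 24 h and 2.93 ± 0.31 CPM at 0 h (SD), a rise of 3.70 ± 0.59 (adjusted p = 0.00116, edgeR), and Ccnd1 rose by 0.55 ± 0.08 with a difference among lines (adjusted p = 0.0222).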

How the data were processed

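Polyadenylated RNA from 17 libraries was quantified by the authors with Salmon 1.4.0 per the submitters' processing notes, which also name DESeq2 1.30.1 and mm10. The authors deposited estimated counts per transcript, not normalised, and TPM for the same transcripts. Their annotation is not given in these sources. Of 137271 transcripts, 137225 matched GENCODE M21 by identifier. The remaining 46 held at most 0.0133% of a library's counts and were left out. Counts were summed per gene and rounded, low genes were removed with filterByExpr (19819 kept), and 10 groups (line by time) were fitted with TMM factors and quasi-likelihood tests in edgeR 4.0.16 (R 4.3.3; 7 residual degrees of freedom), with Benjamini-Hochberg adjustment over all genes and a threshold of 0.05. A lone 0 h library was taken to vary as much as the replicated groups do. SE values derive from the F statistic. DESeq2 1.42.0 and limma 3.58.1 on log2(TPM + 1), with a pseudocount of 1, were alternatives. The edgeR, DESeq2 and limma fits were tested on simulated data.

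The members and lists were chosen with earlier results of these data known. All members and the 5 network genes are named, and from every other list up to 4 genes with the smallest adjusted p of the average change. One such gene is not reported here. Whether replicates came from separate cultures is not labelled, so the p-values reflect library-to-library spread that may be technical. No pair of replicates agreed within sampling noise. Replicate numbers were not taken to pair the samples: deviations of iFoxA1 at 24 h and 0 h correlated at 0.03, while those among the other 4 lines at 24 h, where number 2 is the deeper library, correlated at 0.538 to 0.706. Promoter windows are from RefSeq.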

Additional observations from a re-analysis of the deposited data

Results flagged for a closer look

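One value stood far from the others of its time. Myc in the iFoxC1 library at 0 h had 1.66 CPM, while the other 5 libraries at 0 h had 24.4 to 30.1 CPM. Its gap to the nearest library was 0.799 of the whole range of the 6, past Dixon's 95% critical value for 6 values. The low value was known when the genes were chosen, so this describes it and tests nothing. The 6 libraries come from 5 lines.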

How the results depend on the processing

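The number of genes called in the average change of the 5 lines was 7501, and it was 12246 in the libraries under 30 M counts and 4473 in limma on log2(TPM + 1), with 6093 to 8452 when 1 library was left out. Without iFoxC1 it was 6655, with 11931 and 3775 in the same alternatives and 5039 to 7754 with 1 library left out. For changes that differ among lines it was 195, with 1632 in DESeq2, 953 with a term for deeper libraries, 9864 in the libraries under 30 M counts, 617 under the replicate block, 48 in limma and 13 to 1046 with 1 library left out. For differences at 24 h it was 2591, with 4442, 4881, 11344, 4236 and 875 in the same 5 alternatives and 1378 to 4685 with 1 library left out. For deeper against other libraries it was 5213, with 8870 in limma and 3721 to 5349 with 1 library left out. The cause of these shifts was not tested. The libraries under 30 M counts leave replicates in iFoxA1 only, so the spread rests on that line. Under the replicate block the averages gave 7869 and 7164 calls. Deviations by replicate number correlated at 0.538 to 0.706 among the 4 lines other than iFoxA1, where replicate 2 was the deeper library, and at -0.05 to 0.03 with iFoxA1, so the numbers were not taken to pair the libraries.

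Of the values of single genes, 1116 kept their side of the threshold or, for the untested changes of Myc, stayed within the SE. Another 54 gained a call, 48 lost one, 5 moved (all of Myc) and 1 reversed: Mlx without iFoxC1, at -0.12 in the libraries under 30 M counts. A change of sign was counted as reversed only where a call was involved. Uncalled changes could switch sign, as the average change of Max did, reaching -0.04. Myc was 1.15 when its iFoxC1 library at 0 h was left out and 2.40 without that of iFoxL2. The call of Mxi1 in the average without iFoxC1 (0.54, adjusted p = 0.0480 in edgeR) was lost in 14 alternatives. Without the low-count filter the median change of all genes shifted to 0.12.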
